A study of Mus musculus with 6 samples.

Results

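The transcripts of 7 cytokines made by effector T cells, Ifng, Tnf, Il2, Il21, Il10, Csf2 and Tnfsf11, were followed in T cells sorted from intracranial CT2A tumors of mice at day 13 and day 19. CT2A is a mouse glioma line grown in the brain. The 7 genes were taken by name from the 32285 genes of the matrices, and all 7 were present on both days. The sort gate took cells bearing CD3 together with CD4 or CD8. Per the labels, tumors came from 16 mice at day 13, with 4 mice pooled into each replicate, and from 4 mice at day 19, all 6 to 8 weeks old, and no genotype or drug treatment sets the groups apart. Gene transcripts, 138 antibody tags and T cell receptor (TCR) sequences were read from the same droplets with 10x Genomics 5' chemistry, and each day has 1 deposited matrix.

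Each cytokine reaches a different set of cells. Interferon gamma (Ifng) makes cells display more antigen and makes macrophages more microbicidal, and tumour necrosis factor (Tnf) triggers inflammation and can kill target cells. Interleukin 2 (Il2) feeds T cell growth and regulatory T cells, interleukin 21 (Il21) is a helper cytokine for B cells and CD8 T cells, and interleukin 10 (Il10) restrains antigen-presenting cells. GM-CSF (Csf2) and RANKL (Tnfsf11) act on myeloid cells, the first on their growth and activation and the second on osteoclasts and dendritic cells. T cells store little of these proteins, so that transcription upon receptor engagement sets much of their output. Lasting stimulation in tumors leads to the state called exhaustion, marked by the receptors PD-1 (Pdcd1) and TIM-3 (Havcr2), in which cytokine production is known to be lost in steps.

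A cell was a barcode of the deposited TCR contigs with at least 5000 gene UMIs, at most 10% mitochondrial UMIs and at most 3 UMIs of C1qa, Lyz2 and Csf1r together. A UMI, or unique molecular identifier, tags 1 captured molecule. This left 3775 of 8359 TCR barcodes at day 13 and 2159 of 4295 at day 19, and the macrophage limit had removed 857 and 1056 that met the other limits. CD8 T cells, with a Cd8a or Cd8b1 UMI and no Cd4, numbered 2646 and 1436. CD4 T cells, with the reverse pattern, numbered 499 and 377, and 130 and 110 of them had a Foxp3 UMI, Foxp3 being the defining factor of regulatory T cells. The other 630 and 346 cells carried both or neither and were not used. None of the 7 T cell markers checked was at 0 in any class, and the sums per class held 24172587 and 16031413 gene UMIs for CD8 and 4473680 and 3767890 for CD4 T cells.

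The median CD8 T cell held 7199 UMIs at day 13 and 9098 at day 19, so shares were read after every cell was thinned to 5000 UMIs, and a cell with at least 1 UMI left is called positive. Levels are summed UMIs scaled to a common total (counts per 1e6 UMIs, CPM). A difference is called where it is at least 2-fold and the 2 sums add up to at least 20 UMIs, and intervals are exact 95% intervals that cover counting error only. The matrix of each day carries no map of cells to mice or pools, so each day counts as 1 sample without a test, and library preparation and staining cannot be told apart from the day. The TCR sequences of each day came in 4 parts, called TCR sets 1 to 4. That number matches the 4 pools of day 13 and the 4 mice of day 19, but no label ties a set to a pool or a mouse. Values by set are therefore given as a description of the spread within a day. Set 1 of day 19 held only 12 CD4 T cells, and 13 barcode sequences were used on both days.

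The genes lie, in mm10 coordinates, at chr10:118441046-118445894 (Ifng), chr17:35199367-35202007 (Tnf), chr3:37120713-37125954 (Il2), chr3:37222759-37232636 (Il21), chr1:131019845-131024970 (Il10), chr11:54247270-54249899 (Csf2) and chr14:78277446-78308043 (Tnfsf11), and all are protein coding. Il2 and Il21 are neighbours on chromosome 3. The RefSeq promoter list, build GRCm38.p6, held windows for 6 of the 7, all but Il10. The 250 bases before the start site are shown for the 4 genes that the results turn on, 5′ to 3′ on the gene's own strand. Capitals mark TATAAA, the TATA box, and GGAAAA, the core bound by NFAT factors that act downstream of the T cell receptor, on either strand.
Ifng (chr10:118440796-118441045, plus strand): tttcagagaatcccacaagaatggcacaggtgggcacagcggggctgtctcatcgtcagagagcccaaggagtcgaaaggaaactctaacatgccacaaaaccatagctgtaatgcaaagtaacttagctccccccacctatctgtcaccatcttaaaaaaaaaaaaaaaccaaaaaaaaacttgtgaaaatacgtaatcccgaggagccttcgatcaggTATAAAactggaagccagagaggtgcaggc
Tnf (chr17:35202008-35202257, minus strand): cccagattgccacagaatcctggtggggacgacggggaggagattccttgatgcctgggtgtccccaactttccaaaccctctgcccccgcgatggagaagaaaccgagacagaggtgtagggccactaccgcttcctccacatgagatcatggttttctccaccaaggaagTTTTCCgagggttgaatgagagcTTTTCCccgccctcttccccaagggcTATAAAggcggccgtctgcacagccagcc
Il21 (chr3:37232637-37232886, minus strand): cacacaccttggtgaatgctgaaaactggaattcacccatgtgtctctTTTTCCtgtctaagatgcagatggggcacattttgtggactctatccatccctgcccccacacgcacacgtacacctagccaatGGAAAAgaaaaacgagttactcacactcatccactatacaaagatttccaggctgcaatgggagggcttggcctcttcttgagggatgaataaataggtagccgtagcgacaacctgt
Tnfsf11 (chr14:78308044-78308293, minus strand): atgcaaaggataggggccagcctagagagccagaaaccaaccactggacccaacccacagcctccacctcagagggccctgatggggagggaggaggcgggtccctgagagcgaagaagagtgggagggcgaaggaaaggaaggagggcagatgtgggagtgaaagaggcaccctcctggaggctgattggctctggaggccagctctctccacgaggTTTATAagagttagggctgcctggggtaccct
The TATAAA match began 30 bases before the start in Ifng, 29 in Tnf, 31 in Il2 and 32 in Tnfsf11, and neither Il21 nor Csf2 had one. GGAAAA occurred at 78 and 55 bases before the start in Tnf, 137 and 48 in Il2, and 202 and 118 in Il21. The AP-1 motif TGANTCA was in none of the 6 windows, and no matches overlapped. Over all 32851 windows of this length in that list, 12.4% held TATAAA, 20.4% GGAAAA and 6.75% TGANTCA on either strand. A match is a description of the letters and shows no binding.

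Ifng was the most widespread of the 7 transcripts in CD8 T cells, Tnf and Ifng were similarly widespread in CD4 T cells without Foxp3, and Il2, Il21 and Tnfsf11 were found in a larger share of the latter. Between days, Ifng in CD8 T cells hardly moved, while Il21 and Tnfsf11 were called higher at day 19 in CD4 T cells without Foxp3.

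**Figure D1:**
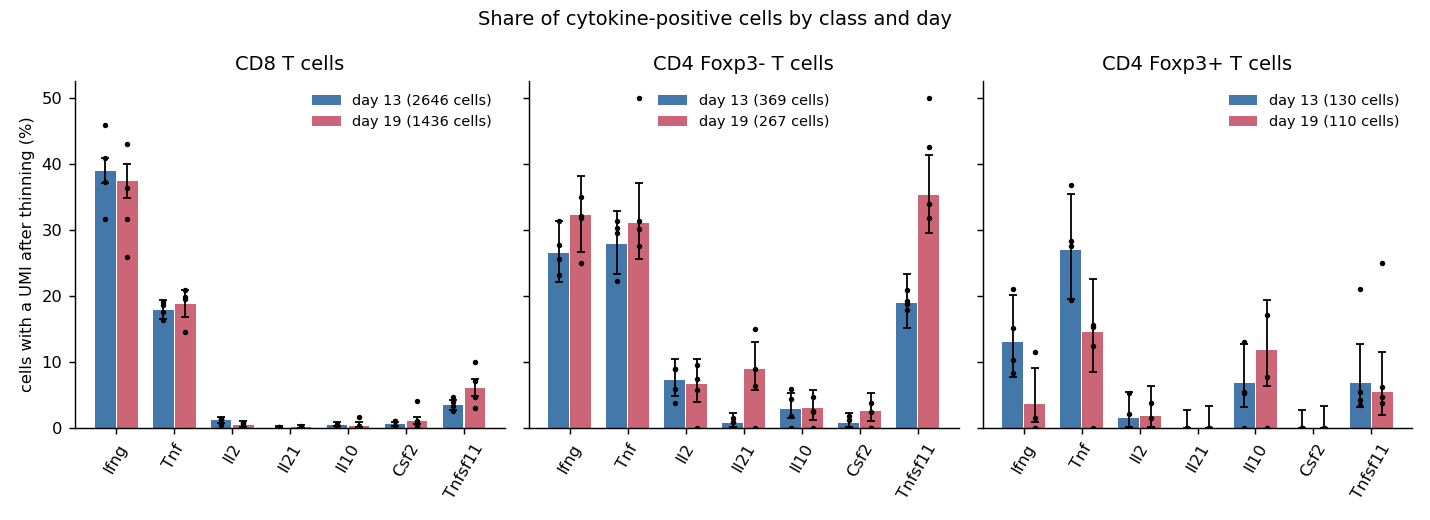
Share of cells with a UMI of each cytokine after thinning to 5000 UMIs, in CD8 T cells and in CD4 T cells without and with Foxp3, at day 13 (blue) and day 19 (red). Bars are all cells of the class, error bars exact 95% binomial intervals and dots the 4 TCR sets. Tnfsf11 goes from 19.0% to 35.2% and Il21 from 0.813% to 8.99% in the middle panel.

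In CD8 T cells, 39.0% were Ifng-positive at day 13 (1031 of 2646) and 37.4% at day 19 (537 of 1436), against 46.8% and 48.1% before thinning. The TCR sets gave 40.8%, 45.9%, 31.6% and 37.2% at day 13 and 31.7%, 42.9%, 36.3% and 25.8% at day 19. The sets of both days overlapped. The Ifng level was 214 CPM at day 13 and 211 CPM at day 19, for a log2 ratio of -0.02 (-0.08 to 0.04). That ratio moved with single sets, to 0.16 without set 2 of day 13 and to -0.42 without set 2 of day 19. Output was concentrated in few cells: 209 of 2646 cells held 50% of the Ifng UMIs at day 13 and 100 of 1436 did at day 19, and the highest single cells held 84 and 137 UMIs.

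Ifng was found in CD4 T cells without Foxp3 in 26.6% of cells at day 13 (98 of 369) and 32.2% at day 19 (86 of 267). The sets ranged from 23.2% to 31.3% and from 25% to 35.0%. The sets of both days overlapped although the level went from 109 to 216 CPM, with a log2 ratio of 0.98 (0.79 to 1.18) that stayed just under the 2-fold rule. Set 2 of day 19 held much of that level, and without it the ratio over all CD4 T cells was 0.19 in place of 0.73.

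Tnf differed little between days in CD8 T cells and in CD4 T cells without Foxp3. It was found in 17.9% and 18.8% of CD8 T cells (25.5% and 31.6% before thinning), with levels of 50.9 and 49.5 CPM and a log2 ratio of -0.04 (-0.17 to 0.09). CD4 T cells without Foxp3 had more of it, with 27.9% and 31.1% positive at 105 and 109 CPM. Tnf is also made by macrophages, and 37.5% of 581 myeloid barcodes (at least 10 UMIs of C1qa, Lyz2 and Csf1r, median 8961 UMIs) carried it at day 13 and 33.2% of 205 (median 9518) at day 19. Of Tnf-positive CD8 T cells, 12.4% had a UMI of the 3 genes against 16.3% of the negative ones at day 13, and 14.8% of either did at day 19. The whole macrophage list of 13 genes was higher in the positive cells, at 3239 against 2695 CPM and 2306 against 2000 CPM. Most of it in CD8 T cells was Ly6c2, at 2683 and 1959 CPM over all of them, and the part of macrophages in Tnf was not tested.

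Since they express Tnf, these barcodes give no background for it. They were taken outside the TCR contigs and with no UMI of Cd3d, Cd3e or Cd3g, which leaves out droplets that caught such T cell RNA. For the other genes, the stray cytokine RNA in these barcodes may therefore be understated. Ifng was in 1.03% of them at day 13 and 0.488% at day 19, Tnfsf11 in 0.172% and 0 of 205, and Il2 and Il21 in none, which allows up to 0.516% and 1.46%. Il21 in CD8 T cells (3 of 2646 and 2 of 1436 cells) was below those limits, as was Il2 in CD8 T cells at day 19 (8 of 1436 cells), so that neither can be told from background at this depth. Il10 in CD8 T cells, at 0.529% and 0.418%, was level with its 0.516% in myeloid barcodes at day 13. Macrophages can make Il10 too, so that these barcodes give no clear background for it. Csf2 in CD8 T cells, at 0.642% and 1.04%, lay within the intervals of its myeloid shares, 0.172% (0.00436% to 0.955%) and 0.488% (0.0123% to 2.69%). Droplets of at most 100 UMIs held 146 and 122 CPM of Ifng and 20.9 and 47.5 CPM of Tnfsf11, so free RNA of both was there.

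Il2 was a transcript of few cells. It was found in 7.32% and 6.74% of CD4 T cells without Foxp3 and in 1.25% and 0.557% of CD8 T cells. Its CD8 sum was 106 UMIs at day 13, 47 of them in 1 cell, and 27 at day 19, a log2 ratio of -1.38 (-2.05 to -0.76). That ratio was -0.63 without set 2 of day 13, -1.48 without the top cell of each day and 0.32 with classes from antibody tags. The CD4 ratio of -1.17 (-1.45 to -0.90) rested on a single cell of day 13 that held 355 of the 403 UMIs, and without it the ratio was 1.39 in the other direction. No direction is therefore given for Il2 between days in either class.

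No Il21 UMI was found in the 130 and 110 Foxp3-positive cells, which allows up to 2.31% and 2.73%. Among CD4 T cells without Foxp3 it was found in 3 of 369 cells (0.813%) at day 13 and 24 of 267 (8.99%) at day 19, or 1.36% and 12.7% before thinning. By set these were 1.49%, 0.893%, 0.893% and 0% at day 13, and 0% of 8 cells, 8.97%, 6.35% and 15% at day 19. Apart from that set of 8 cells, every set of day 19 was above every set of day 13. The level went from 5.62 to 41.3 CPM, with a log2 ratio of 2.88 (2.15 to 3.69). Over all CD4 T cells the ratio lay between 2.61 and 3.10 when any single set was left out, and was 1.82 (0.94 to 2.76) without cycling cells and 4.32 with a minimum of 8000 UMIs per cell.

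Tnfsf11 had the widest gain among CD4 T cells without Foxp3. It was found in 70 of 369 cells at day 13 (19.0%) and 94 of 267 at day 19 (35.2%), or 25.5% and 43.4% before thinning. By set the shares were 20.9%, 18.8%, 17.9% and 19.2% at day 13, and 50.0% (4 of 8 cells), 34.0%, 31.7% and 42.5% at day 19. By share the sets of one day did not overlap those of the other. By level they did, with 66.0 CPM in set 1 of day 19 against 55.9 to 118 CPM in the sets of day 13. The level went from 85 to 206 CPM, with a day 19 over day 13 value of 1.28 (1.06 to 1.5) on the log2 scale. Over all CD4 T cells it was 1.13, and 0.92 without set 2 of day 13. CD8 T cells had it in 3.48% and 6.13%, at 12.7 and 20.1 CPM, a ratio of 0.67 (0.44 to 0.90) under the 2-fold rule, where the highest set of day 13 (4.78%) was above the lowest of day 19 (3.05%).

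Csf2 was rare throughout. It was in 3 of 369 CD4 T cells without Foxp3 at day 13 and 7 of 267 at day 19, and in no Foxp3-positive cell. Its ratio there, 1.31 (0.45 to 2.21), met the rule with 18 and 35 UMIs, but 1 cell held 14 of the 18. Over all CD4 T cells the ratio of 1.21 became -1.61 without set 2 of day 19, and 0.94 and 0.67 without set 1 or 2 of day 13. Il10 in CD4 T cells without Foxp3 was level, with 2.98% and 3% positive.

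Counted against all genes, 3 of the 7 cytokines (Il21, Csf2 and Tnfsf11) were called higher at day 19 in CD4 T cells without Foxp3, where 3.12% of the genes tested were, and Il2 was called lower, where 4.31% were. In CD8 T cells none of the 6 that could be tested was called higher and Il2 was called lower, against 3.23% and 4.04% of all genes. All CD4 T cells together had Il21, Csf2 and Tnfsf11 called higher and Il2 lower, against 3.16% and 4.03%. In both counts the Il2 call rested on the 1 cell with 355 UMIs and the Csf2 call on few cells, so that only Il21 and Tnfsf11 are given a direction. Among Foxp3-positive cells Ifng and Tnf were called lower of 4 tested, against 4.72% of genes, and none was called higher, against 4.73%. Other markers also differed between days in these cells. The dendritic cell list, 6 genes with none at 0, summed to 319 CPM at day 13 and 74.7 CPM at day 19 in CD4 T cells without Foxp3, and the B and plasma cell list, with 1 of its 5 genes at 0 at day 19, to 84.1 and 20.7 CPM. Among Foxp3-positive cells these lists went from 604 to 59.1 CPM and, with 4 of 5 genes at 0 at day 19, from 315 to 11.2 CPM. The tumour, glia and neuron list, with 4 of 7 genes at 0 on both days, went from 76.9 to 269 CPM in CD4 T cells without Foxp3, and at day 19 it was at 743 CPM in the Ifng-positive and 77.1 CPM in the Ifng-negative ones. Of its genes, Ttr had 473 UMIs in a single CD4 T cell of day 19. The part of these markers in the day values was not tested.

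CD4 T cells without Foxp3 were then compared with CD8 T cells. Of the 7 cytokines, 6 were called higher in CD4 T cells without Foxp3 than in CD8 T cells on each day, against 8.82% of genes at day 13 and 9.19% at day 19. The log2 ratios at day 13 and day 19 were 1.04 and 1.14 for Tnf, 4.84 and 5.13 for Il2, 4.77 and 7.37 for Il21, whose 5 and 4 CD8 UMIs cannot be told from background and give no measured size, 2.45 and 2.26 for Il10, 1.23 and 2.16 for Csf2 and 2.75 and 3.36 for Tnfsf11. Tnf and Tnfsf11 were higher in CD4 T cells in all 4 sets of each day, and Csf2 in 2 of 4. Myeloid markers differed between the classes too. The macrophage list without Ly6c2 was at 231 and 282 CPM in all CD4 T cells against 110.2 and 95.5 CPM in CD8 T cells, and the dendritic cell list at 319 CPM in CD4 T cells without Foxp3 against 149.5 CPM at day 13. Their part in the Tnf ratios was not tested. For Il2 at day 13, 1 cell held 355 of the 401 CD4 UMIs, and the unthinned shares were 10.0% in CD4 T cells without Foxp3 and 1.63% in CD8 T cells. For Csf2 at day 13, 1 cell held 14 of the 18 CD4 UMIs and the unthinned share was lower in CD4 T cells, 0.813% against 1.36%, so no direction is given for it. Ifng stood apart. It was lower in CD4 T cells in all 4 sets of day 13, at -0.98 (-1.14 to -0.82), and level with CD8 T cells at day 19, at 0.03 (-0.10 to 0.16). None of the 7 was called lower, against 5.08% and 6.21% of genes.

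Within CD4 T cells, Ifng, Il2 and Tnfsf11 were called lower in cells with a Foxp3 UMI on both days. Ifng was in 17 of 130 Foxp3-positive cells at day 13 (13.1%) and 4 of 110 at day 19 (3.64%, interval 1.00% to 9.05%), against 26.6% and 32.2% of the others. The log2 ratios from thinned counts were -1.32 (-1.89 to -0.79) and -4.12 (-5.45 to -3.06, with 7 UMIs in the Foxp3-positive cells), and Ifng was lower in all 4 sets of each day. The day-19 ratio was -6.00 with another random seed and -5.21 without the top cell of each group. The Ifng share of myeloid barcodes at day 19 was 0.488% (0.0123% to 2.69%), and its interval overlapped that of the Foxp3-positive cells. Tnfsf11 followed the same order, with 6.92% and 5.45% against 19.0% and 35.2%, ratios of -2 and -3.96 and lower thinned levels in all 4 sets. By share it was level in set 1 of day 13, at 21.1% of 19 cells against 20.9% of 67. Il2 was in 2 Foxp3-positive cells on each day, and its ratios were -4.12 and -4.35. Without the cell with the most Il2 UMIs in each group, the day-13 ratio was -3.58. This also took out 1 of the 2 Foxp3-positive cells with Il2. Among the Foxp3-negative cells of day 13, 1 cell held 355 of the 401 Il2 UMIs before thinning. The day-13 ratio ranged from -5.13 to -1.94 with 1 TCR set left out.

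Tnf was called lower in Foxp3-positive cells at day 19 and not at day 13, and the difference between the days was not tested. It was in 26.9% of Foxp3-positive cells at day 13, close to the 27.9% of the others, and in 14.5% against 31.1% at day 19. Its ratios were -0.30 (-0.73 to 0.12) and -1.55 (-2.28 to -0.88). Il10, which regulatory T cells are known to secrete, was in 6.92% and 11.8% of Foxp3-positive cells against 2.98% and 3% of the others, with ratios of 1.79 (0.68 to 2.92) and 2.52 (1.45 to 3.69). Those ratios came largely from set 2 of either day, and were 0.03 and 0.27 without it. On each day 2 sets were higher and 1 lower, so no direction is given for Il10. At day 13, 3 of 5 cytokines tested were called lower in Foxp3-positive cells (5.59% of genes) and Il10 higher (4.21%). At day 19, 5 of 6 were called lower (5.33%), Il21 among them with 0 against 48 UMIs, and Il10 higher (4.59%).

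Among CD8 T cells, Ifng and Tnfsf11 were called higher in cells with Pdcd1 on both days, and Tnf was not called. Of Pdcd1-positive cells, 56.2% were Ifng-positive at day 13 (911 cells) and 58.9% at day 19 (611 cells), against 29.9% and 21.5% of Pdcd1-negative cells. The sets ranged from 50.2% to 61.5% and from 42.9% to 64.6% in the positive cells, and from 24.1% to 35.4% and from 15.6% to 23.9% in the negative ones. The ranges did not overlap on either day. The log2 ratios of Ifng were 1.12 (1.01 to 1.23) and 1.86 (1.71 to 2.02), higher in all 4 sets of each day. Pdcd1-positive cells, 34.4% and 42.5% of CD8 T cells, held 58.3% and 71.4% of the Ifng UMIs.

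Tnfsf11 was in 5.49% and 9.66% of Pdcd1-positive CD8 T cells against 2.42% and 3.52% of the others, with ratios of 1.39 (0.86 to 1.93) and 1.85 (1.27 to 2.47), again in all 4 sets. Tnf was in 18.2% and 19.8% against 17.8% and 18.1%, with ratios of 0.18 (-0.04 to 0.41) and 0.14 (-0.16 to 0.44). Within counting error, a 2-fold difference in Tnf lay outside both intervals. Il2 had a ratio of 1.46 at day 13 from 61 thinned UMIs and was higher in 2 of 4 sets (0.16 without set 2), and at day 19 all 18 thinned UMIs were in Pdcd1-negative cells. At day 13, 3 of 5 tested cytokines were called higher (Ifng, Il2 and Tnfsf11), against 5.43% of genes, and Csf2 was called lower with 4 and 17 UMIs (-0.01 without set 2), against 3.12%. That Csf2 value was 0.23 with another random seed and 0.35 without thinning, so no direction is given. At day 19, 3 of 4 were called higher (Ifng, Tnfsf11 and Il10, the last with 23 UMIs and at -1.65 without set 3), against 6.33%, and none of the 4 was called lower, against 4.69%.

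**Figure D2:**
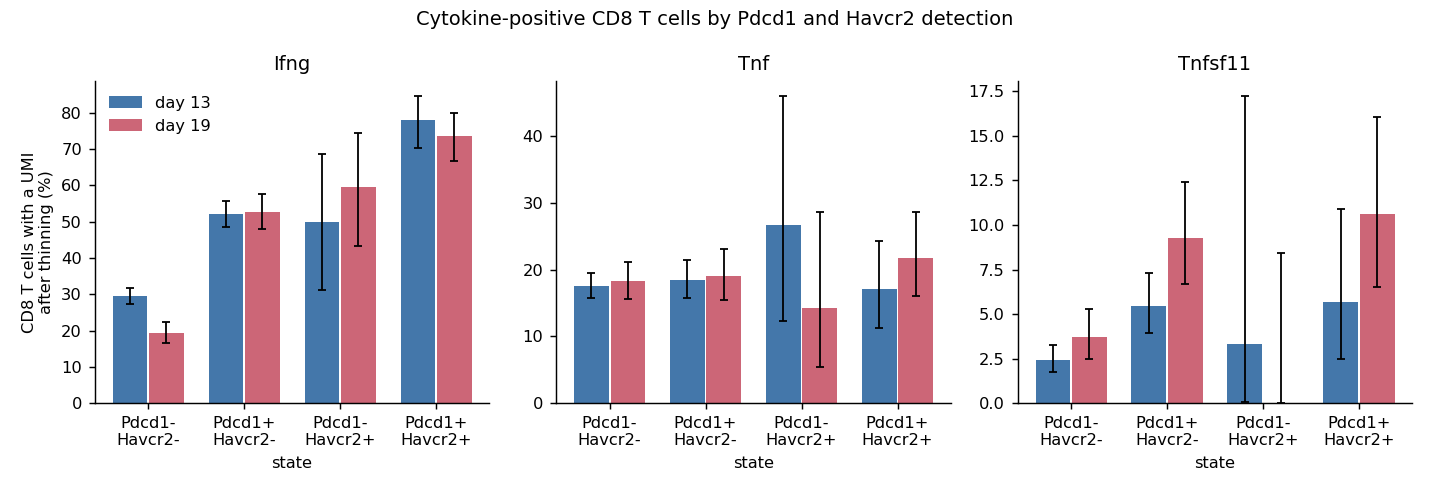
Share of CD8 T cells with a UMI of Ifng, Tnf or Tnfsf11 after thinning, by detection of Pdcd1 and Havcr2, at day 13 (blue) and day 19 (red), with exact 95% binomial intervals; the vertical scale differs between panels. The Ifng share goes from 29.6% and 19.4% in cells with neither receptor to 78.0% and 73.7% in cells with both, and the Tnf share stays between 14.3% and 26.7%.

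Cells with both receptors had the highest Ifng share. Of CD8 T cells with Pdcd1 and Havcr2, 110 of 141 (78.0%) were Ifng-positive at day 13 and 132 of 179 (73.7%) at day 19. Cells with Pdcd1 alone were at 52.2% and 52.8%, cells with Havcr2 alone at 50.0% of 30 and 59.5% of 42, and cells with neither at 29.6% and 19.4%. Among Pdcd1-positive cells the ratio of Havcr2-positive to Havcr2-negative cells was 1.01 (0.85 to 1.18) at day 13 and 0.95 (0.78 to 1.12) at day 19, higher in all 4 sets of each day. The day-13 value lay at the 2-fold rule, and was 0.78 without set 1 and 0.90 without set 3. Macrophages also express Havcr2, and the ratio at day 19 was 0.39 (0.18 to 0.59) in cells with no UMI of C1qa, Lyz2 and Csf1r.

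Tnf was at -0.65 (-1.27 to -0.08) at day 13, but at 0.24 with another random seed, and at 0.19 (-0.31 to 0.68) at day 19. Tnfsf11 was at 0.73 (-0.15 to 1.53) and 0.17 (-0.51 to 0.83). At day 13, 2 of 4 tested cytokines were called higher with Havcr2 (Ifng and Il2), against 3.66% of genes, and none lower, against 5.49%, and the Il2 call became -1.45 when 1 cell was left out. At day 19 none of 3 was called, against 1.65% higher and 3.77% lower.

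Tcf7, the factor that marks progenitor and memory cells, ran opposite to Ifng. Of Tcf7-positive CD8 T cells, 30.3% and 18.0% were Ifng-positive, against 50.1% and 49.7% of Tcf7-negative ones. The ratios were -0.88 (-0.99 to -0.77) and -2.31 (-2.53 to -2.08), lower in all 4 sets of each day. At day 19 the Tcf7-positive cells were 38.8% of CD8 T cells and held 10.3% of the Ifng UMIs, where at day 13 they were 56.4% and held 36.2%. Tnf was at -0.14 and -0.51, and Tnfsf11 at -0.42 and -1.27. None of the cytokines was called at day 13, against 2.3% of genes higher and 6.31% lower. At day 19 Ifng, Tnfsf11 and Il10 were called lower (6.76%), Il10 with 0 against 23 UMIs, and none higher (3.31%). Since 1 cell held 15 of the 28 unthinned Il10 UMIs, no direction is given for Il10.

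Cycling cells, those with a UMI of Mki67 or Top2a, were compared with the others on unthinned UMIs. Tnfsf11 in CD8 T cells had log2 ratios of 1.13 (0.79 to 1.46) and 0.83 (0.50 to 1.17) between cycling and other cells, higher in all 4 sets of each day. Ifng was at 0.20 and -0.17 and was not called. At day 13 Tnfsf11 was called higher (7.93% of genes) and Il2 lower at -1.61 (3.94%), but 1 cell held 47 of the 106 Il2 UMIs. Before thinning, the share of cells with Il2 was 2.17% in cycling and 1.46% in other cells, with depth not matched. At day 19 Il10 was called higher at 1.14 from 28 UMIs (7.45%), of which 1 cell held 15, and none lower (2.89%). No direction is given for these Il2 and Il10 values.

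Among CD4 T cells without Foxp3, Tnfsf11 was called higher with Pdcd1 on both days and Il21 at day 19, and Ifng was not called. Tnfsf11 was in 25% of Pdcd1-positive and 14.9% of Pdcd1-negative cells at day 13 and in 39.2% and 29.4% at day 19. The ratios were 1.46 (0.96 to 1.98) and 1.21 (0.79 to 1.64), higher in all 4 sets. Over all CD4 T cells of day 13 the Tnfsf11 ratio of 1.57 was 0.50 in cells with no UMI of C1qa, Lyz2 and Csf1r. Il21 at day 19 was in 12% against 4.59%, with a ratio of 2.27 (1.03 to 3.8) and higher in 3 of the 3 sets that had any. Ifng was at 0.13 (-0.26 to 0.52) and 0.43 (0.07 to 0.79). Il2 had ratios of 2.47 and 2.19, with 7.59% against 5.50% of cells positive at day 19, and the first rested on the cell of 355 UMIs. These made 2 of 4 tested cytokines called higher at day 13, against 2.04% of genes, and 3 of 5 at day 19, against 4.73%. None was called lower, against 3.01% and 2.35%.

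Havcr2 was rare in CD4 T cells without Foxp3. Only 8 of the Pdcd1-positive cells had it at day 13 and 25 at day 19. At day 19 Ifng was in 52.0% of these against 30.1%, with a ratio of 1.92 (1.49 to 2.34), while Tnfsf11 was in 24.0% against 42.1%, with a ratio of -1.59 (-2.57 to -0.75). By level Ifng was higher in 2 sets and lower in 1, and Tnfsf11 was lower in the 3 with a value. By share Tnfsf11 ranged from 0% to 100% in the Havcr2-positive cells of these sets, which numbered 3 to 18, so it was not lower in each. Of 5 cytokines tested, Ifng was called higher and Il2 and Tnfsf11 lower, against 4.93% of genes called higher and 10.1% lower. All 86 thinned Il2 UMIs were in the Havcr2-negative cells. Over all CD4 T cells the Ifng ratio of 2.02 was 0.93 and the Tnfsf11 ratio of -1.57 was -0.93 without set 2 of day 19, against 4.23% of genes called higher and 9.64% lower.

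Clones were cells of 1 TCR set with the same nucleotides in the CDR3, the loop that meets the antigen, of a single TRA and a single TRB chain, TRA and TRB being the 2 chains of the receptor. Ifng was found in 30.6% of CD8 T cells whose receptor was seen once at day 13 (422 of 1381), 63.6% of those in clones of 2 cells, 62.0% in clones of 3 to 9 and 65.6% in clones of 10 or more. At day 19 the shares were 21.8% (141 of 647), 43.5%, 57.1% and 73.3%. On day 13 the step lay between 1 and 2 cells, and the intervals of the other 3 sizes overlapped.

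**Figure D3:**
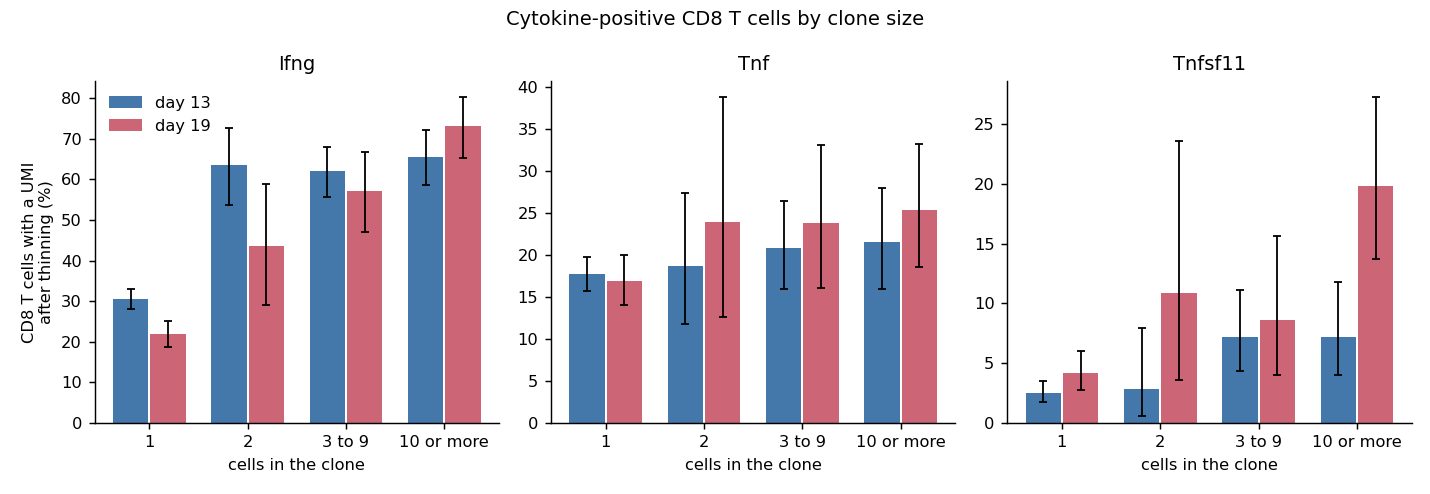
Share of CD8 T cells with a UMI of Ifng, Tnf or Tnfsf11 after thinning, by the number of cells in the clone, at day 13 (blue) and day 19 (red), with exact 95% binomial intervals; the vertical scale differs between panels. Ifng is at 30.6% and 21.8% in cells seen once and at 65.6% and 73.3% in clones of 10 or more.

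Between clones of 3 or more cells and single cells, the log2 ratio of Ifng was 1.26 (1.16 to 1.35) at day 13 and 2.03 (1.89 to 2.16) at day 19, higher in all 4 sets of each day. The expanded clones were 16.8% and 17.5% of CD8 T cells and held 36% and 38.7% of the Ifng UMIs. The ratio of day 19 was 1.53 without the largest clone and 1.23 without set 2. Tnfsf11 had ratios of 1.14 (0.76 to 1.52) and 1.86 (1.46 to 2.25), the former at 0.85 and the latter at 1.06 without the largest clone, and 19.9% of cells in clones of 10 or more were Tnfsf11-positive at day 19 against 4.17% of single cells. Tnf had ratios of 0.31 and 0.50 and was not called.

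At day 13, 3 of 5 tested cytokines were called higher in expanded CD8 clones (Ifng, Il2 and Tnfsf11), against 5.33% of genes and with 5.5% called lower. The Il2 call was -0.50 when the cell with the most Il2 was left out. At day 19, 3 of 6 were called higher (Ifng, Csf2 and Tnfsf11), against 6.27%, Csf2 at 0.91 without its highest cell, and Il2 and Il10 were called lower, with 0 UMIs in the clones and 24 each in single cells, against 7.21%. Of the Il2 and Il10 UMIs of CD8 T cells that day, 1 cell held 13 of 27 and 1 held 15 of 28, so no direction is given for these. Among CD4 T cells of day 19 the Ifng ratio of 1.76 turned to -0.70 without set 2, so no direction is given. Il21 was called lower there at -2.34, and was at -0.42 with clones defined by TRB alone, against 2.84% of genes called higher and 3.68% lower.

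There were 17 clones of at least 10 cells, 15 of them of CD8 T cells. Ifng was in 41.7% to 90.9% of the cells of the 10 CD8 clones of day 13 (median 64.1%) and in 50.0% to 87.7% of the 5 of day 19 (median 60%). Tnfsf11 ranged from 0% to 30% and from 4.35% to 36.8%. The 3 clones with the highest Ifng share, a near-identical partner of 1 of them and the clone made mostly of CD4 T cells are shown by their CDR3 sequences, since these name the receptor. One was of 11 cells in set 2 of day 13, with 10 Ifng-positive. The largest, of 57 cells in set 2 of day 19, had 50 Ifng-positive cells, and 21 each were positive for Tnf and Tnfsf11. A pair of clones, of 30 cells in set 4 of day 13 and of 38 cells in set 3 of day 19, carried the same gene segments (TRAV7D-2, TRAJ7, TRBV16 and TRBJ2-7). The last shown is a clone of 16 cells, 15 of them CD4, in set 2 of day 19. Capitals mark the bases that differ between the paired clones.
Day 13, 11 CD8 cells, TRA: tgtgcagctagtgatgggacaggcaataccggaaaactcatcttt
Day 13, 11 CD8 cells, TRB: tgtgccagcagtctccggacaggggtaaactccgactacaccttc
Day 19, 57 CD8 cells, TRA: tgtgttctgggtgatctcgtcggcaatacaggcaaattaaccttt
Day 19, 57 CD8 cells, TRB: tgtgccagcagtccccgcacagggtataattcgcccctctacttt
Day 13, 30 CD8 cells, TRA: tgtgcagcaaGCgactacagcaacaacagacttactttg
Day 19, 38 CD8 cells, TRA: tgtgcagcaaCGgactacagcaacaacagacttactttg
Day 13, 30 CD8 cells, TRB: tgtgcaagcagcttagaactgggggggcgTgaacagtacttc
Day 19, 38 CD8 cells, TRB: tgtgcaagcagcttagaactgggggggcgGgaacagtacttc
Day 19, 16 cells (15 CD4), TRA: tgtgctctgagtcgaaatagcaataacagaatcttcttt
Day 19, 16 cells (15 CD4), TRB: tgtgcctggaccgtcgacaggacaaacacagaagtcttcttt
The paired clones differed at 2 of 39 TRA bases and 1 of 42 TRB bases, and 80.0% and 76.3% of their cells were Ifng-positive, with Tnfsf11 in 6.67% and 7.89%. They were chosen for this likeness after their values were seen. Another CD8 clone, of 23 cells in set 2 of day 19, carried the same segments and the TRA CDR3 of the clone of 38 cells with another TRB CDR3, and 56.5% of its cells were Ifng-positive. Whether such likeness reflects like receptors or the assignment of cells to sets and clones was not tested. The clone of 16 cells had Ifng in 68.8% of its cells, Tnf and Tnfsf11 in 43.8% each, Csf2 in 12.5% and Il21 in 6.25%. Of the 17 clones it was among the 3 with any Il21, the others being the clones of 11 and 57 cells with 1 cell each. Havcr2 was in 50.9% and Pdcd1 in 94.7% of the cells of the largest clone.

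**Figure D4:**
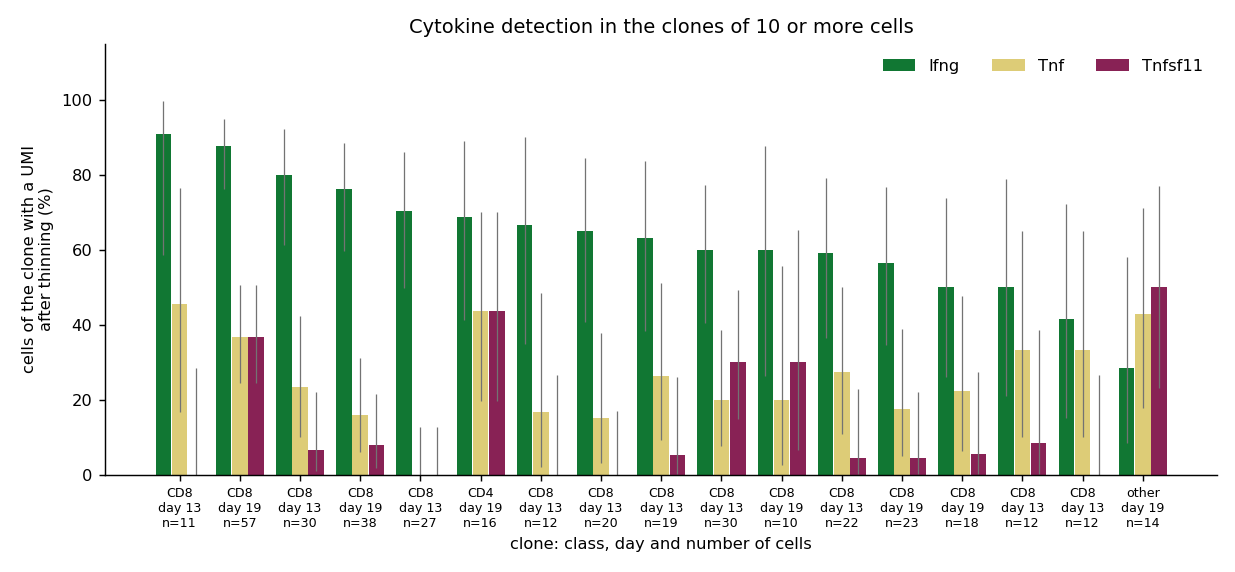
Share of cells with a UMI of Ifng (green), Tnf (yellow) and Tnfsf11 (purple) after thinning in each clone of at least 10 cells, ordered by the Ifng share, with exact 95% binomial intervals; labels give the class of most cells (other, where most had both or neither of the class genes), the day and the number of cells. Ifng runs from 90.9% to 28.6%, and Tnfsf11 is at 36.8% in the clone of 57 cells.

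Few cells carried several of the 7 transcripts at once. After thinning, 49.4% and 50.2% of CD8 T cells had none, and 0.642% and 1.67% had 3 or more. Of CD4 T cells without Foxp3, 39.6% and 30% had none, and the share with 3 or more went from 2.98% (11 of 369) to 13.5% (36 of 267). Of Foxp3-positive cells, 56.2% and 68.2% had none. Co-detection was compared with the number of cells expected if both detections were independent within each TCR set.

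**Figure D5:**
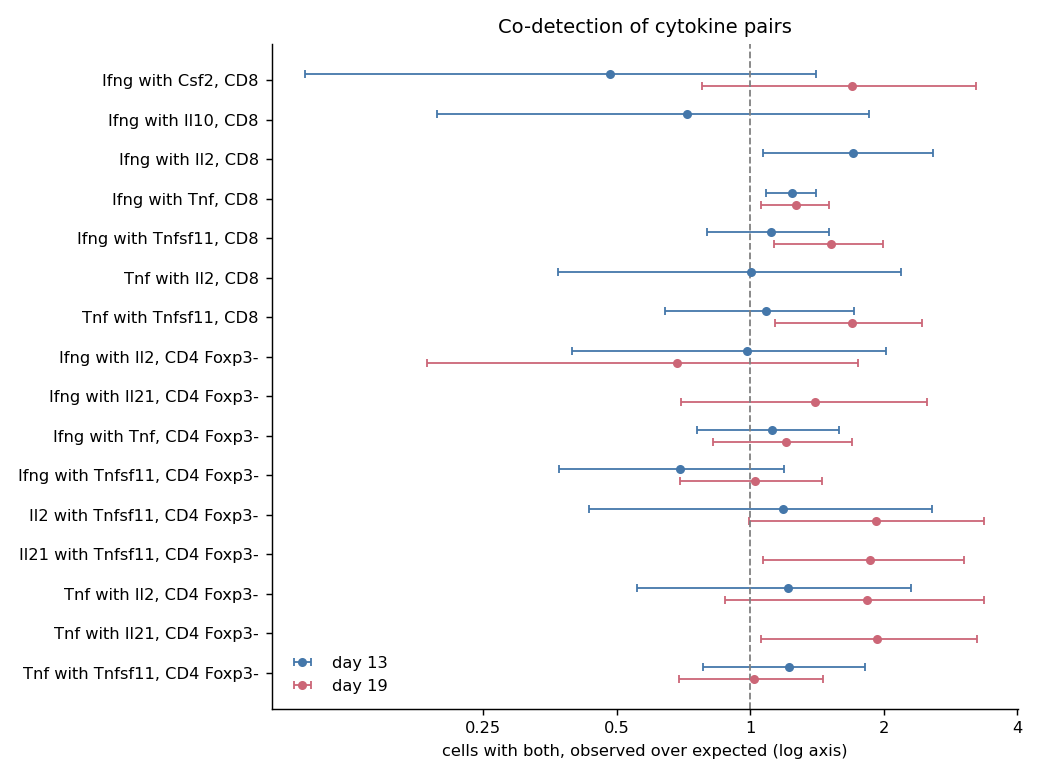
Number of cells with both transcripts of a pair over the number expected from independence within TCR sets, on a log axis, for pairs with an expected number of at least 5, at day 13 (blue) and day 19 (red), with exact 95% intervals of the observed count. Ifng with Tnf in CD8 T cells lies at 1.24 and 1.27, and the dashed line at 1 marks independence.

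Ifng and Tnf met in the same CD8 T cell in 230 cells against 186 expected at day 13 (1.24, interval 1.08 to 1.41) and in 128 against 101 at day 19 (1.27, 1.06 to 1.5), above 1 in all 4 sets of each day. With another random seed for the thinning these were 1.18 (1.03 to 1.35) and 1.16 (0.95 to 1.39), so that the interval of day 19 then included 1. Of Ifng-positive CD8 T cells, 22.3% and 23.8% also had Tnf, against 15.1% and 15.8% of Ifng-negative ones. Ifng and Il2 met in 22 cells against 12.9 at day 13 (1.70, 1.07 to 2.58), and in 2 against 2.98 at day 19 (0.67, 0.08 to 2.42). The day-13 value was 1.60 (0.97 to 2.46) with another seed. Tnfsf11 met Ifng at 1.11 (0.80 to 1.51) and 1.52 (1.13 to 2.00), and Tnf at 1.09 (0.64 to 1.71) and 1.70 (1.14 to 2.44). With another seed the day-19 values were 1.53 (1.14 to 2.00) with Ifng and 1.37 (0.89 to 2.02) with Tnf. The depth left after thinning was equal for all cells, and the state, clone and cycling mix was not matched, so its part in these ratios was not tested.

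Among CD4 T cells without Foxp3 at day 19, Il21 with Tnfsf11 was the pair whose interval lay above 1 under both seeds. Il21 met Tnfsf11 in 16 cells against 8.58 expected (1.87, 1.07 to 3.03, and 2.01 with another seed), so that 66.7% of Il21-positive cells had Tnfsf11, and met Tnf in 14 against 7.25 (1.93, 1.06 to 3.24, but 1.47, 0.70 to 2.7, with another seed). The pairs were above 1 in 3 and 2 of the sets. Il2 met Tnfsf11 at 1.92 (0.99 to 3.36) and Tnf at 1.83 (0.88 to 3.37), both with intervals that included 1. Ifng met Tnfsf11 at 0.70 (0.37 to 1.19) and 1.02 (0.70 to 1.45), Tnf at 1.12 and 1.20, and Il21 at 1.40 (0.70 to 2.51). Differences between pairs were not tested.

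The genes most like each cytokine were ranked by the ratio of their level in positive over negative cells, over both days and with at least 100 thinned UMIs. For Ifng in CD8 T cells (1568 positive, 2514 negative) the highest were Ttr, Ccl1, Tff1, Adgrg1, Havcr2 and Ppp2r2c, with log2 ratios of 3.26, 2.75, 2.18, 2.17, 2.15 and 2.04. Ttr, a choroid plexus transport protein, rested on 4 cells that held 1839 of its 1840 UMIs at day 19. Adgrg1, an adhesion receptor of cytotoxic cells, was at 2.40 and 2.14 on the 2 days, Havcr2 at 2.29 and 2.09 and Ppp2r2c at 2.51 and 1.87. Ccl1 was at 1.36 and 3.49 and Tff1 at 1.57 and 2.95, so at day 13 both lay below Adgrg1, Havcr2 and Ppp2r2c. The lowest were Ecm1 at -2.34, Ifngr2 at -2.29 and Igfbp4 at -2.18. Ifngr2, a chain of the interferon gamma receptor, was at 4.59 CPM in Ifng-positive and 22.4 CPM in Ifng-negative cells. Of 8469 genes, 1.22% were called higher and 0.555% lower.

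For Tnfsf11 in CD8 T cells (180 positive cells) the highest were Ccl1 at 4.44, Cd40lg at 2.97, Igfbp7 at 2.85, Tff1 at 2.58, Il1r2 at 2.56 and Nrgn at 2.44. Ccl1 is a chemokine and Cd40lg the CD40 ligand of helper cells. The lowest was the granzyme Gzma at -3.63, with 42.2 CPM in positive and 521 CPM in negative cells, then Ipmk at -3.23 and Klra1 at -3.06. Ipmk and Klra1 had only 1 and 2 UMIs in the positive cells. Of all genes 1.84% were called higher and 3.25% lower. For Csf2 in CD8 T cells (32 positive cells) Ccl1 again led at 5.69, before Igfbp7 at 3.47, Il1r2 at 3.32, Nrgn at 2.99, Hus1 at 2.34 and Klrb1c at 2.27. The days differed, with 1.30 at day 13 and 4.24 at day 19 for Igfbp7, 2.16 and 3.61 for Il1r2 and 1.74 and 3.06 for Nrgn. Hus1 was at 3.32 and 2.90 and Klrb1c at 3.37 and 0.73. H2-Ab1 at -4.01, H2-Eb1 at -3.20 and Tspyl1 at -3.17 were lowest, against 11.7% of genes called higher and 7.57% lower. These 3 rested on 1, 2 and 1 UMIs in the positive cells, so their sizes are not measured closely. At day 19, 4 cells held 161 of the 219 Ccl1 UMIs of CD8 T cells, and the largest clone held 42.0%. The Ccl1 ratio was 1.52 at day 13 and 4.96 at day 19 for Tnfsf11, and 4.00 and 5.91 for Csf2.

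For Tnf in CD8 T cells (744 positive cells) Ccl1 led at 2.57, with 0.54 at day 13 and 3.21 at day 19, before Il4i1 at 1.64, Il1rn at 1.62, Mmp25 at 1.52, Cd40lg at 1.40 and Cd40 at 1.39. Il4i1, Il1rn and Cd40, genes also known from dendritic cells and macrophages, were at 1.91, 1.84 and 1.62 at day 13 and at -0.21, -0.21 and -0.06 at day 19. Tnf-positive CD8 T cells of day 13 also held more of the dendritic cell list, 304 CPM against 116 CPM, and the part of such cells was not tested. The lowest were Ttr at -7.19, Fancc at -1.63 and Crip2 at -1.57, with 1, 7 and 7 UMIs in the positive cells. Only 0.236% of genes were called higher and 0.165% lower.

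For Il2 in CD4 T cells (49 positive cells) the highest were Ppan at 2.25, Srm at 1.97, Nop2 at 1.79, Dapl1 at 1.68 (2.37 at day 13 and -0.16 at day 19), Nolc1 at 1.67 and Nsun2 at 1.55. Ppan, Nop2 and Nolc1 serve ribosome assembly and Srm makes spermidine. The lowest were Ccl4 at -5.55, Sv2c at -3.95 and Fgl2 at -3.84, with 1.08% of genes called higher and 7.16% lower. For Il10 in CD4 T cells (41 positive cells) Ccl4 was the highest at 2.39, and Mt1 at 2.35, Gzmb at 2.29, Sv2c at 2.26 and Entpd1 at 2.22 were among the next. Gzma at -3.33, Birc5 at -3.31 and Lrig1 at -3.18 were lowest, against 2.49% of genes higher and 7.22% lower. The lowest genes of Il2 and Il10 rested on 1 or 2 UMIs each in the positive cells, so their sizes are not measured closely, and Foxp3 was not matched between positive and negative cells. Entpd1, the ectoenzyme CD39, is known from regulatory T cells. Il21 had under 30 positive cells per class and no genes are named for it.

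Genes of the wider pathway were compared between days on the lists chosen. The counts for each list stand against 3.23% of all genes called higher and 4.04% lower in CD8 T cells, and 3.12% and 4.31% in CD4 T cells without Foxp3. In CD8 T cells the dendritic cell list went from 149.5 to 54.8 CPM between the days and the macrophage list from 2793 to 2054 CPM, with no gene of either at 0, and their part in the list values was not tested. Of the receptor list, 14 of 15 genes could be tested, and none was called higher and 3 lower in either class, with medians of -0.31 in CD8 and -0.30 in CD4 T cells without Foxp3. The medians of all genes were -0.04 and 0.03. In CD8 T cells the 3 were Csf2rb at -1.90, a beta chain for GM-CSF, Csf2rb2 at -1.39, and Tnfrsf11a at -2.41, the receptor of Tnfsf11. Those of CD4 T cells without Foxp3 were Ifngr2 at -1.67, Csf2rb at -1.28 and Tnfrsf11a at -4.41, the last with 27 and 1 UMIs. No gene of the 13 of JAK-STAT signalling was called.

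Of the transcription factors of cytokine genes, 1 of 25 was called lower in CD8 T cells, Bcl6 at -1.24, and none higher, with a median of -0.32. Of the same list, CD4 T cells without Foxp3 had Egr3 called higher at 1.64 and Egr1 lower at -1.21 of 24 tested, with a median of 0.00. Both Egr genes are induced by receptor signals. Of the mRNA decay factors, Zc3h12c was called lower in CD8 T cells at -1.41 (-3.45 to 0.23) from 20 UMIs among 9 tested, and none of 8 was called in CD4 T cells without Foxp3.

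Among 27 other T cell cytokines, 18 could be tested in CD8 T cells and 4 were called lower, with none higher. The lowest were Il17a at -5.62 (74 and 1 UMIs), Cd40lg at -1.53 and Ccl5 at -1.17, and the other was Ebi3 at -1.10. Among CD4 T cells without Foxp3, 4 of 21 were called higher and 5 lower. Tnfsf14 was at 1.20, Ccl3 at 1.51, Ebi3 at 1.10 and Il22 at 4.46, but Il22 at day 19 came from 2 cells, 1 of them with 48 UMIs, and Ccl3 was at -0.45 without set 2 of day 19. Il17a at -2.37, Xcl1 at -1.56 and Ccl5 at -1.43 were lowest, and the other two were Il4 at -1.37 and Osm at -1.24. The medians were -0.39 and -0.04.

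Of the 19 genes of the interferon gamma response list, 4 were called lower at day 19 in CD8 T cells and 5 in CD4 T cells without Foxp3, and none higher. The medians were -0.79 and -0.66. Over all CD4 T cells only 1 was called lower, with a median of -0.40, against 4.03% of genes. Among Foxp3-positive cells 1 was, with a median of -0.17, against 4.72%. The 4 of CD8 T cells were Cxcl10 at -1.64 (297 and 94.9 CPM), Gbp2 at -1.27 and Iigp1 at -1.27, with Irgm1 at -1.13. Cxcl10 is a chemokine, and the Gbp and Irg genes encode GTPases of cell-autonomous defence. The 5 called lower in CD4 T cells without Foxp3 were led by Cxcl10 at -1.45, Cxcl9 at -1.41 and Gbp2 at -1.13, the others being Gbp5 at -1.05 and Irgm1 at -1.03. Without set 2 of day 19 the CD8 values were -1.15 for Cxcl10, -1.05 for Gbp2, -1.05 for Iigp1 and -0.95 for Irgm1, and those of CD4 T cells without Foxp3 were -0.90 for Cxcl10, -0.85 for Gbp2 and -0.70 for Irgm1. Type I interferons induce these genes too, and the cause of the lower values was not tested.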

How the data were processed

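Gene expression, antibody tag and TCR libraries of the day-13 and day-19 samples were used, 14 files in all. The matrices deposited by the authors give unnormalized counts of UMIs for each gene in each droplet. Per the file headers, Cell Ranger 4 made them. The submitters' processing notes name bcl2fastq 2.20, Cell Ranger 4.0.0, STAR 2.7.5c, Seurat, R 4.1.2 and build mm10. The deposited TCR files list contigs with their UMI counts.

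The members, gene lists, alternatives and the rule for naming genes were chosen with earlier results of these data known. That rule took all 7 cytokines. It also took the called genes of each list (at most 3 highest and 3 lowest), and the 6 highest and 3 lowest genes by ratio between positive and negative cells. Of the clones of at least 10 cells it took those with the highest Ifng and Il21 shares. Genes outside it are marked by "the other" in the text. One gene that the rule took is not reported here.

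Classes and cycling were set on all UMIs, and Foxp3, Pdcd1, Havcr2 and Tcf7 after thinning with a fixed seed. Ratios by class, day, clone size and cycling used summed unthinned UMIs, and ratios by state used thinned ones. Sums of 0 were set to 3 counts and give bounds. Intervals were exact Poisson for levels and ratios and Clopper-Pearson for shares. Doublets were not called, and the 8% of cells with the most UMIs were left out as an alternative. The ratio and its interval were checked on simulated Poisson counts. Those lack the concentration of UMIs in few cells seen here, so the check covers counting error only. Python 3.11.15, numpy 2.4.6, pandas 2.3.3, scipy 1.17.1 and matplotlib 3.10.9 were used.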

Additional observations from a re-analysis of the deposited data

How the results depend on the processing

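Of 1208 values of 135 results recomputed under alternatives, 1000 lay within the interval of the reported value, 193 outside, and 15 turned the direction of a value called at 2-fold. Those outside include values not called that crossed 0, such as Ifng between days in CD4 T cells with antibody classes. No paired analysis was possible because each day has 1 matrix and the labels pair no samples. Alternatives that left a sum of 0 gave no value. Leaving out 1 cell and leaving out the largest clone were chosen after seeing the data. Depth limits Il2, Il21, Il10 and Csf2, whose sums in CD8 T cells were 106 UMIs or fewer. The causes of the values below were not tested. Leaving out cells or sets shows only that a value depends on them.

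The Ifng share of CD8 T cells at day 13 and day 19 was 46.8% and 48.1% without thinning, 27.6% and 25.8% after thinning to 2500 UMIs, 36.6% and 34.0% with classes from antibody tags, and 35.8% and 33.4% without cycling cells. The share of day 19 was 40.0% with a minimum of 8000 UMIs, 34.2% with exactly 1 TRA and 1 TRB, and 34.2% with equal weight of sets. In CD4 T cells it was 46.2% and 19.2% with antibody classes, which held only 13 and 52 CD4 T cells, and 17.0% and 15.6% at 2500 UMIs. It was also 18.9% at day 13 with a minimum of 8000 UMIs, and 30.5% without thinning and 30.2% with at least 2 UMIs of the class gene at day 19.

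The day ratio of Ifng in CD8 T cells was -0.16 in cells with no UMI of C1qa, Lyz2 and Csf1r, -0.15 with exactly 1 TRA and 1 TRB, 0.13 without cycling cells, -0.23 with equal weight of sets and 0.085 without the 8% of cells with the most UMIs. In CD4 T cells it was 0.99 at 8000 UMIs, -1.20 with antibody classes, 0.53 without cycling cells and 0.28 with equal weight. The day ratio of Il21 in CD4 T cells was 4.32 at 8000 UMIs, 3.94 with at least 2 UMIs of the class gene and 1.82 without cycling cells. That of Tnfsf11 was 2.27 with antibody classes and 1.39 without cycling cells in CD4 T cells, and 0.39 at 8000 UMIs and 0.96 without the 8% of cells in CD8 T cells. Il2 turned to 0.32 in CD8 T cells with antibody classes. In CD4 T cells it turned to 2.41 with exactly 1 TRA and 1 TRB, 1.92 without the 8% of cells and 1.39 without the top cell.

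The Pdcd1 ratio of Ifng in CD8 T cells at day 19 was 1.60 with no macrophage UMI. The Havcr2 ratio was 0.39 with no macrophage UMI and 0.78 without the top cell at day 19, and without thinning 0.74 and 0.60 on the 2 days. The Foxp3 ratio of Ifng at day 19 was -6.00 with another random seed. The clone ratio at day 19 was 2.21 without the top cell and 1.53 without the largest clone for Ifng, and 1.30 by TRB alone and 1.06 without the largest clone for Tnfsf11. Il10 by Pdcd1 at day 19 turned to -2.45 with no macrophage UMI, Csf2 by Pdcd1 at day 13 to 0.35 without thinning and 0.23 with another seed, and Il2 at day 13 to -1.45 (Havcr2) and -0.50 (clones) without the top cell.

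Leaving out 1 TCR set at a time, the day ratios ranged from -0.42 to 0.16 (Ifng, CD8), 0.19 to 0.89 (Ifng, CD4), 0.92 to 1.25 (Tnfsf11, CD4), -1.64 to 1.96 (Il2, CD4) and -1.61 to 3.26 (Csf2, CD4). The Ifng shares of CD8 T cells ranged from 34.7% to 42.8% and from 31.3% to 40.1%. In CD8 T cells the Ifng ratio by Pdcd1 at day 19 ranged from 1.34 to 1.97, by Havcr2 from 0.78 to 1.5 and from 0.91 to 1.12, and by clones from 1.08 to 1.35 and from 1.23 to 2.44. The clone ratios ranged from 1.19 to 2.08 (Tnfsf11, CD8, day 19), -2.72 to 2.60 (Il2, CD8, day 13) and -0.70 to 2.06 (Ifng, CD4, day 19). The Foxp3 ratio of Il10 ranged from 0.028 to 2.64 and from 0.27 to 2.82, Il10 by Pdcd1 in CD8 T cells at day 19 from -1.65 to 4.33, and Il2 by Pdcd1 in CD4 T cells at day 13 from -0.74 to 3.12. Of the list genes, 0 were called higher and 13 lower in CD8 T cells and 4 and 11 in CD4 T cells, which became 1, 30, 11 and 24 at 1.5-fold, and 4 became 1 with a minimum of 100 UMIs.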
